A study of Bos taurus with 12 samples.

Results

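Receptive and non-receptive bovine endometrium were compared on day 7 of the estrous cycle. The comparison used 6 of the 12 pooled RNA samples in the series, namely the 3 pools titled receptive and the 3 titled non-receptive on day 7. All pools came from Simmental heifers and were profiled by hybridisation of biotin-labelled cRNA to Affymetrix bovine arrays, 1 array a pool. The state of each endometrium was assigned from pregnancy outcome, and the samples are described as taken before the transfer of in vivo produced embryos. The remaining 6 pools were the same 2 states on day 3. They entered the linear model as groups of their own and helped to estimate how far pools vary. The ages of the heifers and the number of animals in a pool are not stated, and the p-values measure the spread between pools.

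The endometrium is the lining of the uterus and consists of luminal and glandular epithelium over a stroma with vessels and resident immune cells. Around day 7 the corpus luteum secretes progesterone, and an embryo, where there is one, lies free in the uterus. Progesterone acts through its receptor to change glandular secretion and, over the following days, to lower the abundance of steroid receptors in the epithelium. A receptive endometrium is one that goes on to carry a pregnancy.

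Of 9 transcripts that mark the cell types of the endometrium, 4 were read well above the array medians and none at the floor. The epithelial transcript EPCAM lay between 12.77 and 13.14 on the log2 scale in the 6 pools, and KRT18, a keratin of simple epithelium, between 11.21 and 12.15. VIM, an intermediate filament protein of stromal cells, lay between 9.33 and 10.73, and PTPRC, the common leukocyte antigen, between 8.02 and 8.69. KRT8, a partner of KRT18, lay between 5.89 and 6.68, COL1A1, a stromal collagen, between 6.10 and 7.07, and PECAM1, an endothelial adhesion protein, between 5.11 and 6.13, and the steroid receptors PGR and ESR1 had means of 4.31 and 3.57. Array medians were 6.64 to 6.68, and 326 to 450 probe sets a pool stood at exactly 0, the floor of the deposited values. Pools of the same state correlated with a mean r of 0.966 over 6 pairs, and pools of different states with a mean r of 0.967 over 9 pairs. The 3′ minus 5′ signal of beta-actin, a sign of transcript length in the RNA, was 0.45, 0.02 and 0.63 in the non-receptive pools and 1.25, 0.96 and 0.82 in the receptive pools. These values did not overlap, whereas those of GAPDH did, at 0.62 to 0.72 and 0.37 to 0.96. On day 3 beta-actin was again without overlap, at 0.49, 0.48 and 0.93 in non-receptive and 3.11, 1.05 and 1.8 in receptive pools. GAPDH overlapped then too, and EF1A lay the other way, at -0.68, -0.5 and -0.81 against -1.27, -0.9 and -1.19. The part of RNA length in the differences given here was not tested. In pooled tissue, fewer cells of a type and less RNA per cell cannot be told apart.

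No transcript was called different in abundance between receptive and non-receptive endometrium on day 7 after correction for multiple testing. Of 24016 probe sets, limma called 0 (0%) at an adjusted p below 0.05, and the smallest adjusted p was 0.0963. Without adjustment, 516 probe sets (2.15%) were more abundant and 880 (3.66%) less abundant in receptive pools at p below 0.05. The values of the 3 receptive pools lay above all 3 non-receptive values in 960 probe sets (4%) and below them in 1256 (5.23%). The unadjusted counts depended on single pools: without receptive pool 3 they were 881 and 1150, and without non-receptive pool 3 they were 895 and 1192.

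Among the 17602 probe sets with a mean above 5 over the 6 pools, the median size of the difference was 0.133 and the 95th percentile was 0.5. A difference over 1, which is a doubling, was found for 140 of these (0.795%), 102 of them higher and 38 lower in receptive pools. Of the 140, 24 had pools that did not overlap, where 736 of the 17602 were higher and 814 lower without overlap. The median standard error of a difference was 0.169, and the 95% interval at that error reached 0.377 to each side.

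**Figure D1:**
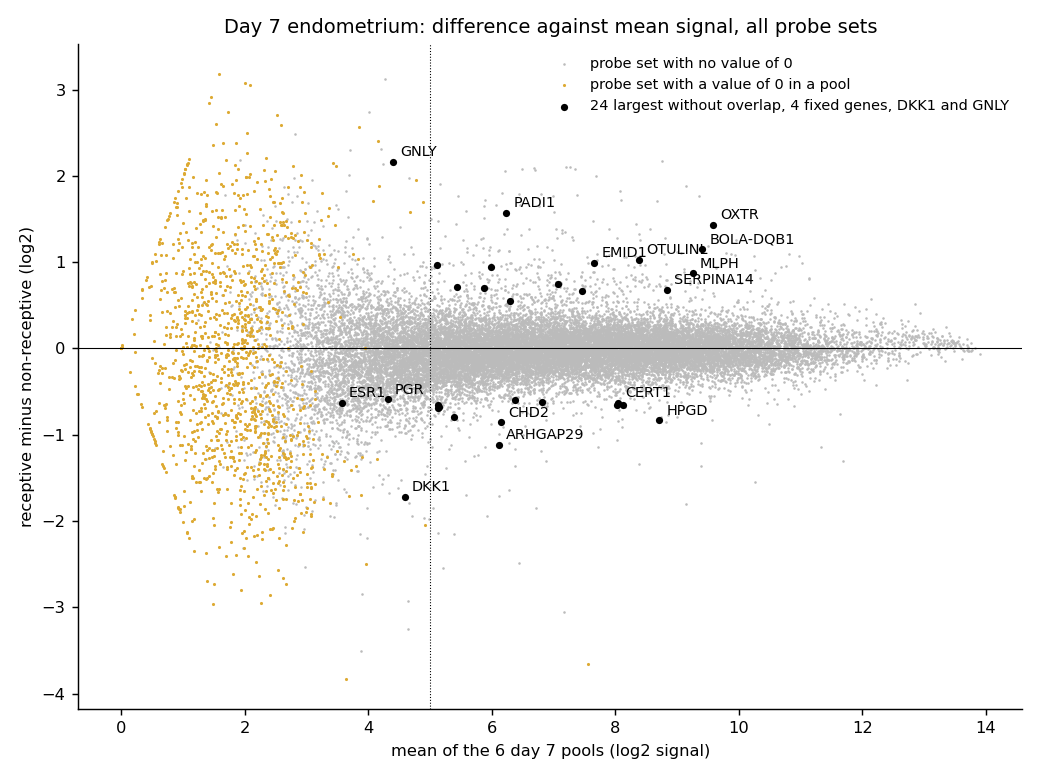
Difference between receptive and non-receptive pools on day 7 (log2, vertical axis) against the mean of the 6 pools (log2 signal, horizontal axis) for each probe set. Probe sets with a value of 0 in a pool are yellow and fill the left side, where differences of 2 to 3 are common, and the dotted line marks a mean of 5. Black points are the 24 genes with the largest differences among those with no overlap and p below 0.01, the 4 genes named whatever their values, and DKK1 and GNLY.

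The smallest adjusted p belonged to G6PC1, the catalytic subunit of glucose-6-phosphatase, which releases free glucose. Its signal was 0, 1.41 and 0 in the non-receptive pools and 3.80, 3.55 and 3.30 in the receptive pools. Receptive pools were therefore higher in every case, but 2 of the 6 values stood at the floor, and the mean of 2.01 lies below the range on which weight was put. No fold change is given for that reason.

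The 12 genes with the largest excess in receptive pools were chosen among those with a mean above 5, no overlap and p below 0.01, since none passed the adjusted threshold. They were PADI1, BOLA-DQB1, OTULINL, EMID1, SYNJ1, BOLA-DQA2, MLPH, ITPRIP, RAD52, EHBP1L1, ADGRE5 and TPT1. Their differences ran from 1.57 down to 0.55 on the log2 scale, with adjusted p between 0.783 and 0.821. The group held a protein-modifying enzyme, both chains of a class II antigen-presenting molecule, proteins of vesicle transport and a leukocyte surface receptor.

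PADI1, which converts arginine in proteins to citrulline, had the largest difference of the 12. Its signal was 5.39, 5.39 and 5.57 in non-receptive pools and 7.87, 7.60 and 5.60 in receptive pools. Receptive pools 1 and 2 stood more than 2 above every non-receptive pool, while pool 3 exceeded the highest of them by a margin at the second decimal. The difference was 1.57 (SE 0.48, adjusted p = 0.821), or 2.98-fold. Without receptive pool 3 it was 2.29, with an adjusted p of 0.0235, and PADI1 was then the only probe set called.

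BOLA-DQB1 and BOLA-DQA2 encode the beta and alpha chains of the class II molecule DQ, which presents peptides to helper T cells. BOLA-DQB1 measured 9.61, 8.51 and 8.36 in non-receptive and 10.30, 9.77 and 9.88 in receptive pools, a difference of 1.16 (SE 0.31, 2.23-fold). Non-receptive pool 1 came closest to the receptive pools in both genes. BOLA-DQA2 measured 6.32, 5.24 and 4.99 against 6.52, 6.45 and 6.43, a difference of 0.95 (SE 0.29). The 2 other probe sets of BOLA-DQA2 lay higher on average in receptive pools too, by 0.93 and 0.82. The 4 other probe sets of BOLA-DQB1 did not share a direction and gave 0.98, 0.95, -0.17 and -3.05. For the last of these the receptive pools spread from 3.19 to 8.49. The one at -0.17 had the highest mean signal of the gene, 10.77, beside 9.4 for the probe set named first. Under the rule for lists, that brightest probe set stands for BOLA-DQB1. The DQ genes have related copies and alleles, and cross-hybridisation between them was not tested.

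MLPH, which couples secretory vesicles to myosin, measured 8.82, 9.05 and 8.59 in non-receptive and 9.81, 10.03 and 9.24 in receptive pools, a difference of 0.87 (SE 0.25, 1.83-fold). EHBP1L1, an effector of Rab proteins in vesicle transport, measured 5.56, 5.45 and 5.54 against 6.29, 6.36 and 6.01, a difference of 0.70 (SE 0.17). The lack of overlap in both genes follows from the rule of choice, and the third receptive pool lay nearest to the non-receptive pools. ADGRE5, an adhesion receptor of leukocytes, differed by 0.67 (SE 0.19), from a mean of 7.13 in non-receptive to 7.80 in receptive pools.

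OTULINL, a protein related to a deubiquitinase, had means of 7.87 and 8.90 in non-receptive and receptive pools, and EMID1, a secreted matrix protein, 7.16 and 8.15. SYNJ1, a phosphoinositide phosphatase, had means of 4.63 and 5.60, ITPRIP, which binds the inositol trisphosphate receptor, 6.70 and 7.45, and RAD52, a protein of recombinational DNA repair, 5.08 and 5.79. These differences were not shared by other probe sets of EMID1, SYNJ1 and RAD52, which gave -0.31, -0.04 and -0.04. TPT1, a growth-related cytosolic protein, differed by 0.55 at the probe set chosen, but 4 of its other probe sets, with means of 12.51 to 13.82, gave 0.02, 0.00, 0.00 and -0.06, and the fifth gave 0.48.

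The 12 genes with the largest deficit in receptive pools, chosen by the same rule, were ARHGAP29, CHD2, HPGD, CUEDC1, TJP3, HSD17B14, ACADSB, MIOX, CAV2, CERT1, TMEM255A and FMO5. Differences ran from -1.12 to -0.59, with adjusted p between 0.646 and 0.821. Several are metabolic enzymes: ACADSB breaks down branched-chain acyl groups, MIOX degrades inositol, FMO5 is a flavin monooxygenase, and HSD17B14 oxidises steroids.

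HPGD, the dehydrogenase that inactivates prostaglandins, had 2 probe sets that gave the same direction. The first read 9.19, 9.19 and 9.02 in non-receptive pools and 8.49, 7.99 and 8.42 in receptive pools. The spread within either state was smaller than the gap between them. The difference was -0.83 (SE 0.21, adjusted p = 0.821), or 1.78-fold. The second read 5.52, 5.67 and 5.76 against 4.95, 4.72 and 5.37, a difference of -0.64 that again had no overlap.

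CERT1, which carries ceramide from the endoplasmic reticulum to the Golgi, measured 8.14, 8.52 and 8.43 in non-receptive and 7.81, 7.68 and 7.72 in receptive pools, a difference of -0.63 (SE 0.13, adjusted p = 0.652). CAV2, a caveola protein, measured 8.40, 8.66 and 8.29 against 7.94, 7.52 and 7.94, a difference of -0.65 (SE 0.16). ACADSB measured 8.45, 8.52 and 8.10 against 7.70, 7.55 and 7.84, a difference of -0.66 (SE 0.18). The lack of overlap in these 3 genes follows from the rule of choice. The other probe sets of CAV2 gave -0.45 and -0.28.

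ARHGAP29 had the largest deficit, with 6.08, 7.24 and 6.70 in non-receptive and 5.18, 5.64 and 5.85 in receptive pools (-1.12, SE 0.30, 2.17-fold). CHD2, a chromatin remodeller, differed by -0.86, and its 4 other probe sets ranged from -0.75 to 0.08. TJP3, a tight junction scaffold, had the smallest adjusted p of the 12 at 0.646, with 5.52, 5.59 and 5.30 against 4.63, 4.94 and 4.76. Another probe set of TJP3, with a mean of 8.91, differed by 0.15 in the opposite direction, and 2 other probe sets of CUEDC1, which has a ubiquitin-binding domain, differed by -0.03 and 0.01. Over all 24 genes, 13 had other probe sets, and 20 of these 31 probe sets lay in the same direction. Of these, 8 had an unadjusted limma p below 0.05, beside 2.15% higher and 3.66% lower among all probe sets. The other probe sets read the same RNA in the same pools and are not independent of the choice of genes.

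**Figure D2:**
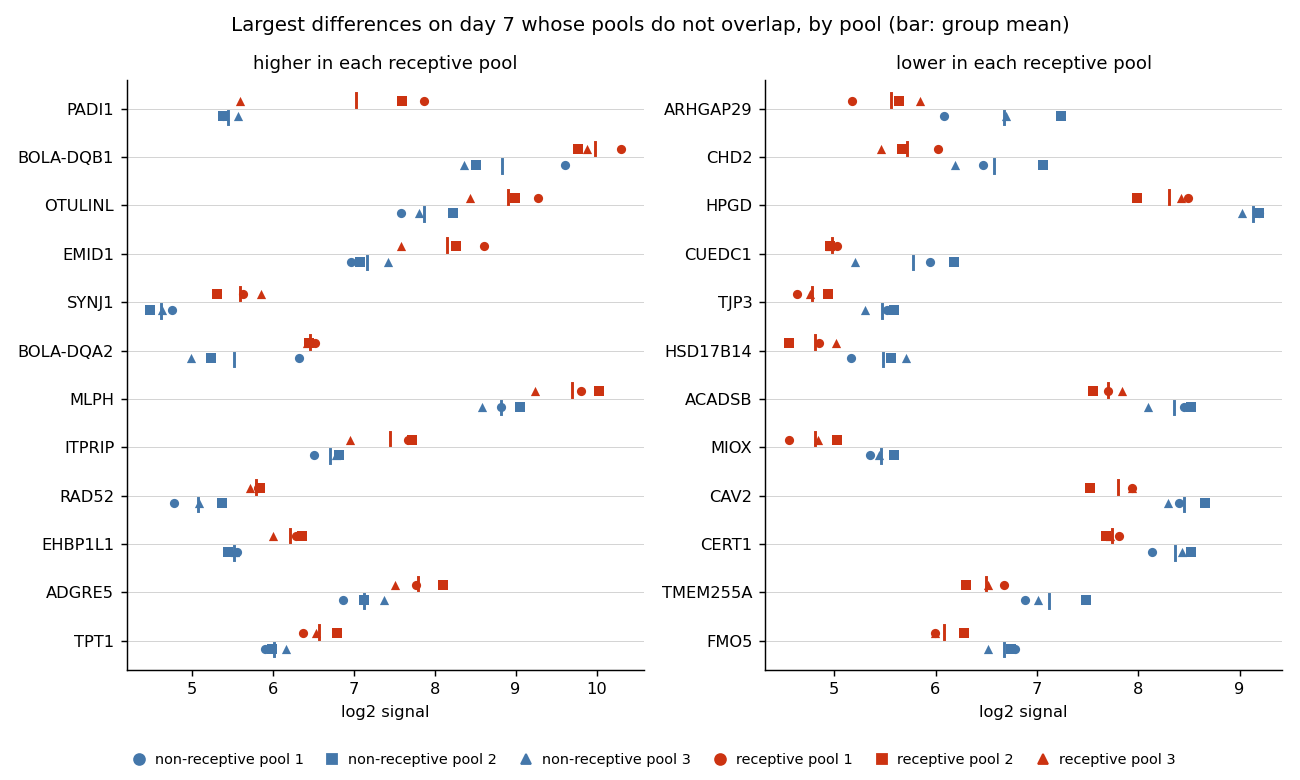
Signal (log2, horizontal axis) of the 24 genes with the largest differences, with 1 point for each of the 3 receptive (red) and 3 non-receptive (blue) pools and a bar at each group mean. No gene passed the adjusted threshold. Pools do not overlap in any of them because the genes were chosen so. PADI1, ITPRIP and EMID1 show receptive pool 3 close to the non-receptive pools, whereas HPGD, CERT1 and EHBP1L1 show a wider gap between the states.

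The steroid receptors ESR1 and PGR were measured near the lower end of the array, while 9 of the 13 measured members of their list had a mean above 5. ESR1, the estrogen receptor, read 4.06, 3.86 and 3.72 in non-receptive and 3.29, 3.62 and 2.85 in receptive pools. Every receptive pool lay below every non-receptive pool, and the difference was -0.63 (SE 0.26, adjusted p = 0.821). PGR, the progesterone receptor, read 4.21, 4.91 and 4.70 against 4.51, 4.33 and 3.21. Its pools overlapped, the difference was -0.59, and its 95% interval ran from -1.72 to 0.54. Of 13 measured steroid receptors and cofactors, 9 lay below 0 and the median difference was -0.20, which became -0.04 without non-receptive pool 2, -0.08 without receptive pool 2 and -0.32 without non-receptive pool 3. FKBP4, a chaperone of the progesterone receptor, lay the other way with means of 9.41 in non-receptive and 9.81 in receptive pools, and NR2F2, a stromal orphan receptor, had means of 9.43 and 9.06.

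SERPINA14, the uterine serpin secreted by the glands under progesterone, did not separate the states. It read 7.68, 6.16 and 11.64 in non-receptive and 8.80, 10.48 and 8.24 in receptive pools. The lowest and the highest value both belonged to non-receptive endometrium. The difference of 0.68 had a 95% interval from -2.09 to 3.45. A second probe set gave 0.79.

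In the prostaglandin and oxytocin pathway, the members did not share a direction. Prostaglandins and oxytocin act together in the uterus to end the luteal phase when no embryo is present. Of 19 measured members, 10 lay above and 9 below 0, with a median difference of 0.00 on the log2 scale. The 3 members whose pools did not overlap all lay lower in receptive endometrium, HPGD with the values above, PTGR1 and PTGER3, where 3.64% of all genes were lower and 5.09% higher without overlap. PTGR1, which reduces prostaglandin metabolites, read 10.03, 9.83 and 9.76 against 9.46, 9.37 and 9.14, a difference of -0.55 (SE 0.20). PTGER3, a receptor of prostaglandin E, differed by -0.39, with receptive pool 1 lowest at 6.27.

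OXTR, the oxytocin receptor, had one of the larger excesses in receptive endometrium, but the receptive pools disagreed. Non-receptive pools read 8.86, 8.62 and 9.11, receptive pools 1 and 2 read 10.78 and 11.23, and receptive pool 3 read 8.88. The third receptive pool thus fell inside the non-receptive range. The difference was 1.43 (SE 0.50, 2.70-fold, adjusted p = 0.821), and its 95% interval ran from 0.32 to 2.55.

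The same division of the receptive pools was seen in several genes of other lists, which were picked for it after their values were seen. IGFBP3, which binds insulin-like growth factors, read 8.39, 7.48 and 8.77 in non-receptive pools and 11.20, 11.33 and 7.75 in receptive pools. SLC7A5, a transporter of large neutral amino acids, read 6.16, 5.65 and 6.03 against 8.66, 8.40 and 5.74. Receptive pools 1 and 2 were above all non-receptive pools in both genes, and pool 3 was not.

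The WNT receptor FZD10 read 7.75, 8.41 and 6.26 in the receptive pools and 6.45 to 6.77 in the non-receptive pools. The claudin CLDN10 read 10.79, 11.52 and 9.96 against 9.79 to 10.15. The interferon-stimulated ISG15, a ubiquitin-like modifier, read 11.61, 10.72 and 9.44 against 8.53 to 9.95. In none of these did the difference pass the adjusted threshold, with adjusted p of 0.821, 0.821 and 0.83.

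**Figure D3:**
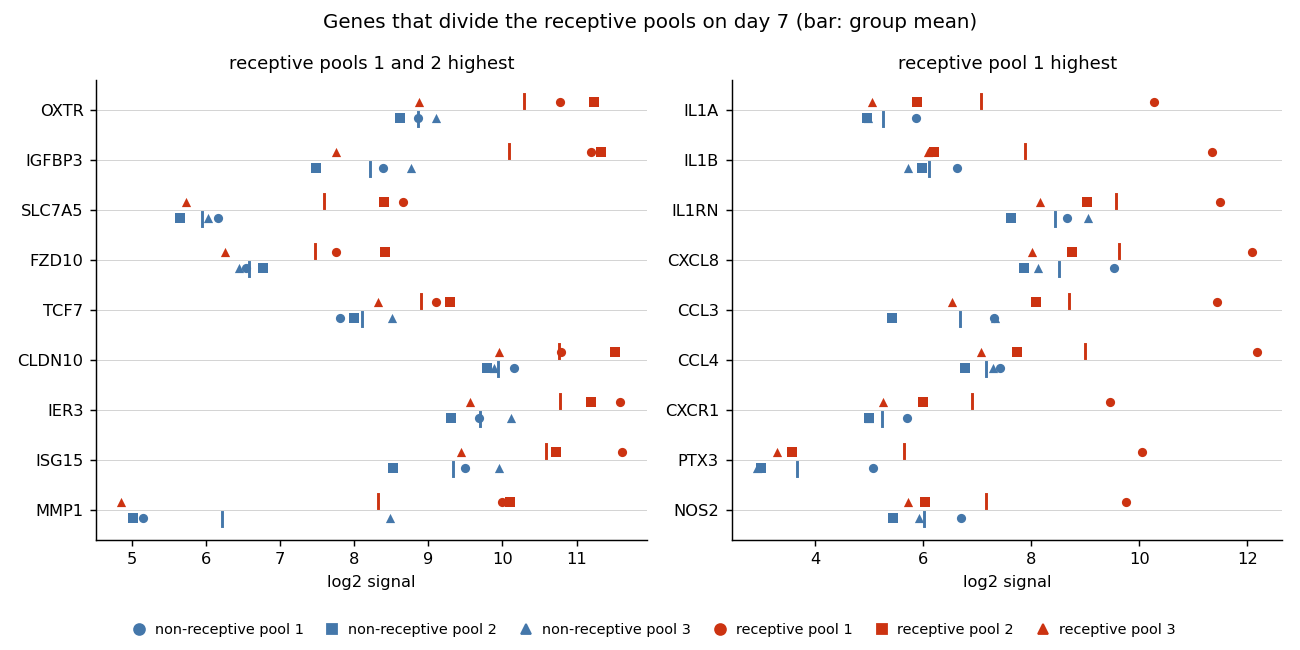
Signal (log2, horizontal axis) of 18 genes chosen after their values were seen, with 1 point a pool (receptive red, non-receptive blue) and bars at the group means. On the left, receptive pools 1 and 2 were the highest of the 6 pools while receptive pool 3 lay near or within the non-receptive range, as for OXTR at 10.78, 11.23 and 8.88. On the right, receptive pool 1 alone stood high, as for IL1B at 11.34 against 6.62 or less elsewhere.

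DKK1, a secreted inhibitor of WNT signalling, was the gene with a symbol and no value at the floor that came nearest to the threshold. It read 5.76, 4.97 and 5.62 in non-receptive pools and 3.59, 3.58 and 4.02 in receptive pools. The highest receptive pool lay below the lowest non-receptive pool. The difference was -1.72 (SE 0.27, adjusted p = 0.312), with a 95% interval from -2.32 to -1.12, or 3.29-fold. Its mean over the 6 pools was below 5, where signals on the array are weak.

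Other genes of WNT signalling and uterine patterning were divided. Of 25 measured members, 15 lay above and 10 below 0, with a median of 0.03. Pools did not overlap in 6 members, each lower in receptive endometrium (3.64% of all genes). These were DKK1, HOXA9, HOXD10, SFRP1, WNT2B and FZD4. HOXA9, a patterning factor of the reproductive tract, read 6.80, 6.86 and 7.30 against 6.05, 5.73 and 6.49, a difference of -0.90 (SE 0.42). SFRP1, another secreted WNT inhibitor, differed by -0.50, and HOXD10 by -0.57. In the opposite direction, the WNT transcription factor TCF7 had means of 8.11 and 8.91, with overlap of receptive pool 3 at 8.32. Among 31 genes of luteal phase secretion 18 lay above 0, with a median of 0.05, and DKK1 was the only one with an unadjusted p below 0.05.

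GNLY, a protein of the killing granules of lymphocytes, had the largest excess among the T and NK cell markers. It read 3.82, 2.39 and 3.73 in non-receptive and 6.26, 5.48 and 4.69 in receptive pools. The lowest receptive pool lay above the highest non-receptive pool. The difference was 2.16 (SE 0.44, adjusted p = 0.646), with a 95% interval from 1.17 to 3.15, at a mean signal below 5. IL2RA, the high-affinity receptor chain for interleukin 2, also weak, read 2.96, 2.09 and 2.87 against 4.83, 3.74 and 4.35. The remaining markers did not follow: over 30 measured members the median was 0.05, 17 lay above and 13 below 0, and the natural killer receptor NCR1 was lower at each receptive pool, with means of 4.86 and 4.35. T and NK markers as a whole had levels, relative to the mean of the 6 pools, of 0.25, -0.06 and 0.08 in receptive and -0.06, -0.14 and -0.07 in non-receptive pools, which overlapped by 1 pool.

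Genes of antigen presentation lay slightly higher in receptive pools, with 19 of 23 above 0 and a median of 0.16. For comparison, 53.8% of 9155 genes lay above 0 with a median of 0.02. BOLA-DQA2 and the peptide transporter TAP2 were the members with no overlap, where 5.09% of genes were higher without overlap. BOLA-DRB3, the main DR beta chain, had means of 10.61 and 10.97. BOLA-N, a class I gene, lay the other way at 12.77, 11.48 and 12.79 against 10.12, 11.17 and 11.82. Interferon-stimulated genes had 19 of 26 members above 0 and a median of 0.19, with no member free of overlap. Both medians depended on single pools. That of antigen presentation was 0.06 without non-receptive pool 2, 0.10 without receptive pool 2 and 0.29 without non-receptive pool 3, and that of the interferon-stimulated genes was 0.07, with 15 of 26 above 0, without non-receptive pool 2, 0.11 without receptive pool 2 and 0.12 without non-receptive pool 1.

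Inflammatory genes divided the receptive pools more than they divided the states. Cytokines and NF-kB genes had levels, relative to the mean of the 6 pools, of 0.00, -0.53 and 0.00 in non-receptive and 0.93, -0.11 and -0.29 in receptive pools. Chemokines had levels of 0.04, -0.33 and -0.22 in non-receptive and 0.90, -0.10 and -0.27 in receptive pools. Receptive pool 1 was the highest in both lists, and the other receptive pools fell within the non-receptive range. The median differences of 0.19 over 36 cytokine and NF-kB genes and 0.18 over 26 chemokine genes were -0.06 and -0.04 without receptive pool 1. They were 0.07 and 0.07 without non-receptive pool 2, and the chemokine median was 0.03 without non-receptive pool 3 and 0.27 to 0.33 without any 1 of the other 3 pools.

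IL1B, the central fever and inflammation cytokine, read 11.34 in receptive pool 1 and 5.72 to 6.62 in the other 5 pools. IL1A, its companion, read 10.28 against 4.96 to 5.88. CCL4, which attracts monocytes and lymphocytes, read 12.19 against 6.78 to 7.74, and PTX3, an acute-phase pentraxin, read 10.06 against 2.92 to 5.07. These genes were named after their values were seen. The chemokine CCL3 read 7.31, 5.42 and 7.34 in non-receptive and 11.45, 8.09 and 6.54 in receptive pools (SE of the difference 1.03, 4.01-fold, adjusted p = 0.821), and its log2 difference was 0.63 without receptive pool 1. CCL11, which attracts eosinophils, was the single chemokine with an unadjusted limma p below 0.05, and lay lower in receptive pools, at 5.91, 5.94 and 5.78 against 5.71, 5.52 and 5.44. In the list of cytokines and NF-kB genes, the members with the smallest p were not cytokines. They were the toll-like receptors TLR3, TLR5 and TLR6, with differences of -0.63, -0.49 and -0.30, and NFKB1, higher by 0.32, all with overlap.

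Neutrophil markers were also highest in receptive pool 1, with levels of 0.02, -0.60 and 0.08 in non-receptive and 0.61, 0.25 and -0.35 in receptive pools. Of 19 members, 15 lay above 0 and the median was 0.32, but pools overlapped in every member. The median was 0.07 without non-receptive pool 2, 0.12 without receptive pool 1 and 0.55 without receptive pool 3. CXCR1, the interleukin 8 receptor of neutrophils, read 9.46 in receptive pool 1 and at most 5.99 elsewhere, and S100A9, a subunit of a calcium-binding complex of neutrophils, had means of 7.93 and 8.72. The enzymes of neutrophil granules MPO and ELANE stayed between 3.45 and 4.59 in all pools, and no member stood at 0. Macrophage and dendritic cell markers had levels of 0.09, -0.75 and 0.43 against 0.16, 0.54 and -0.45, and matrix metalloproteinases and their inhibitors -0.16, -0.87 and 0.28 against 0.51, 0.76 and -0.50. MMP1, an interstitial collagenase, read 5.15, 5.02 and 8.48 against 9.99, 10.10 and 4.86. Non-receptive pool 2 and receptive pool 3 were thus the lowest pools in all 3 lists. The part of leukocyte content in the differences of the immune genes was not tested.

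The level of ciliated epithelium markers separated the states in all 6 pools. Levels of cytosolic ribosomal proteins, also higher in receptive pools, and of squamous markers, lower in them, did so too. Ciliated cells lie among the secretory cells of the epithelium and carry motile cilia. Of 31 ciliated entries 12 were measured, and 11 of these lay above 0, with a median difference of 0.52. Pools did not overlap in 7, each higher in receptive endometrium, where 5.09% of all genes did so. The level of the list was -0.29, -0.19 and -0.21 in non-receptive and 0.05, 0.03 and 0.61 in receptive pools. Receptive pool 3 was the highest, and without it the median difference was 0.31. No member reached an unadjusted limma p below 0.05.

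Single ciliary genes showed the same separation. TEKT1, a filament protein of ciliary microtubules, read 7.35, 7.27 and 7.27 in non-receptive and 7.80, 7.85 and 8.49 in receptive pools (0.75, SE 0.39, adjusted p = 0.821). ROPN1L, a protein of the ciliary radial spoke, read 7.53, 7.08 and 7.02 against 8.10, 7.67 and 8.51 (0.88, SE 0.45). TPPP3, a tubulin-binding protein, read 7.65, 7.33 and 7.77 against 8.20, 7.88 and 9.03. All receptive pools lay above all non-receptive pools in these 3 genes. IFT57, a transport protein of cilia, was the exception at -0.86, with no value above 3.24. Of the other epithelial markers, 18 of 25 genes of simple epithelium and glands lay above 0 with a median of 0.13, which was 0.07 without receptive pool 2 and 0.20 without non-receptive pool 3. The squamous markers had 10 of 23 members above 0 and a median of -0.07. Their 4 members with the smallest p were PADI1 and PKP3, a desmosome protein, which lay higher on average in receptive pools by 1.57 and 0.49, and TFAP2A, an epithelial transcription factor, and the basal keratin KRT5, which differed by -0.92 and -1.81. KRT5 read 9.76, 10.09 and 10.28 in the non-receptive pools and 6.15, 10.06 and 8.50 in the receptive pools, so that its difference rested on pools 1 and 3.

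Stromal and matrix transcripts lay lower on average in receptive endometrium. Of 41 extracellular matrix genes 35 lay below 0, with a median of -0.24, and of 23 stromal fibroblast markers 18 lay below 0, with a median of -0.23. The lists share 8 genes. Without overlap, 2 matrix and 3 stromal members were lower in receptive pools, where 3.64% of all genes were lower without overlap. The matrix median was -0.09 without receptive pool 1, -0.12 without non-receptive pool 1, -0.15 without receptive pool 3 and -0.44 without receptive pool 2. The stromal median was -0.08 without either receptive pool 1 or non-receptive pool 1, and -0.13 without non-receptive pool 3. COL3A1, a fibrillar collagen, read 11.86, 10.27 and 10.98 in non-receptive and 9.21, 9.78 and 9.49 in receptive pools, and every receptive pool was lower. The difference was -1.54 (SE 0.62, adjusted p = 0.821). PDGFRA, a growth factor receptor of fibroblasts, read 6.64, 6.57 and 7.32 against 6.07, 6.52 and 6.04, also without overlap, and PTN, a heparin-binding growth factor, had means of 6.97 and 5.26 with overlap.

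The pools did not follow their states over either whole list, however. The matrix level was 0.31, -0.30 and 0.28 in non-receptive and -0.23, 0.34 and -0.40 in receptive pools. The stromal level was 0.27, -0.30 and 0.32 in non-receptive and -0.15, 0.28 and -0.43 in receptive pools. In both lists non-receptive pool 2 lay with the low receptive pools and receptive pool 2 with the high non-receptive pools. Individual genes opposed the lists: FBLN5, an elastic fibre protein, read 5.53, 5.20 and 5.43 against 7.25, 5.43 and 7.00. COL1A1 read 6.77 to 6.80 in non-receptive and 6.10, 7.07 and 6.83 in receptive pools, and VIM overlapped with means of 10.15 and 10.11. LYVE1, a receptor of lymphatic endothelium, lay lower in each receptive pool, at 5.36, 5.52 and 5.32 against 4.32, 5.14 and 4.33, while the 36 endothelial genes had a median of -0.06. Smooth muscle and pericyte markers had a median of -0.09 over 18 genes. The part of stromal content in the lower collagen signal was not tested.

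**Figure D4:**
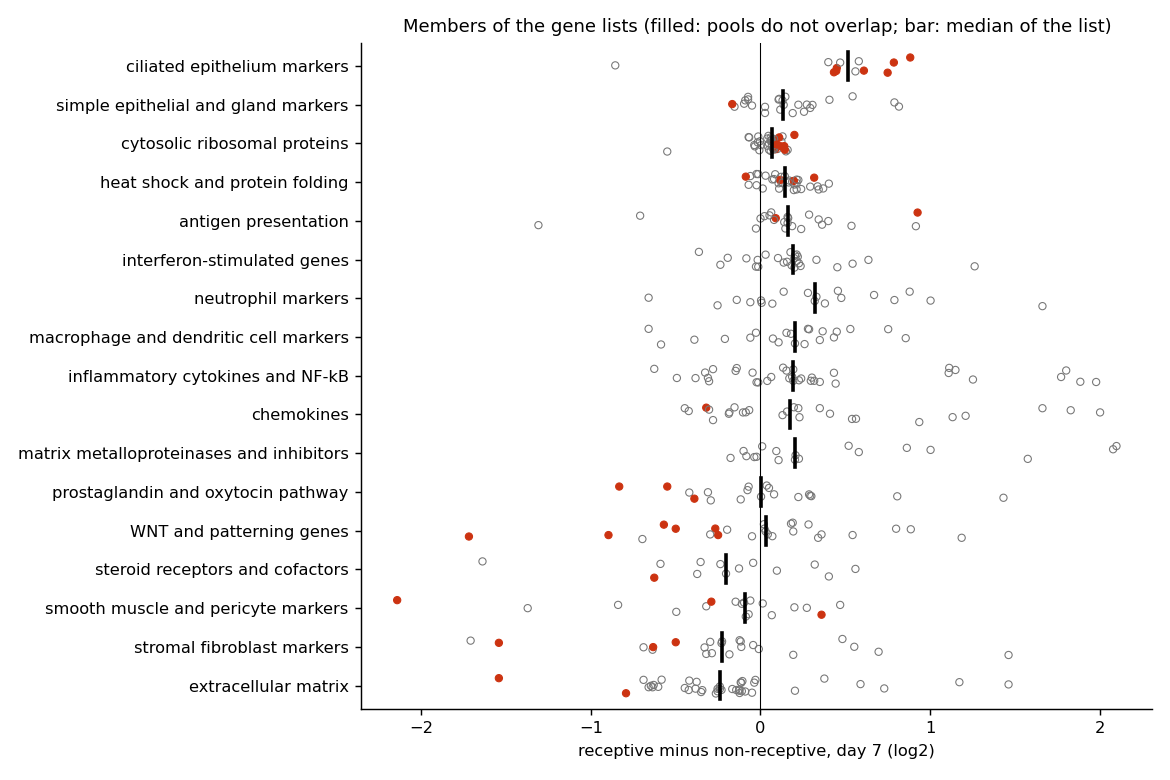
Difference between receptive and non-receptive pools (log2, horizontal axis) for each measured member of 17 gene lists, with a black bar at the median of the list and filled red points where the pools of the states did not overlap. Ciliated markers lie to the right of 0 with a median of 0.52, and extracellular matrix genes to the left with a median of -0.24. No point passed the adjusted threshold.

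Small shifts were seen in genes of protein synthesis and folding, with little spread between pools for the ribosomal proteins. Cytosolic ribosomal proteins had 33 of 42 members above 0 and 9 members without overlap, each higher in receptive pools, where 53.8% of all genes lay above 0 and 5.09% were higher without overlap. They had a median difference of 0.07, which was 0.01 after quantile normalization. RPL3, the member with the smallest p, read 12.92, 12.97 and 12.75 in non-receptive and 13.11, 13.13 and 13 in receptive pools, where the highest value in the whole table was 14.06. Heat shock and protein folding genes had 29 of 35 members above 0 and a median of 0.14. Their levels overlapped, at -0.09, -0.15 and 0.02 in non-receptive and 0.09, 0.16 and -0.03 in receptive pools. CCT5, a subunit of the cytosolic chaperonin, read 10.11, 10.11 and 10.34 against 10.42, 10.84 and 10.33. HYOU1, a chaperone of the endoplasmic reticulum, read 9.56, 9.29 and 9.54 against 10.03, 10.17 and 9.4, with means of 9.46 and 9.87. Receptive pool 3 lay within the non-receptive range in both genes.

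Transport and metabolic genes held members that lay apart in both directions. AQP3, a water and glycerol channel, read 7.96, 8.36 and 8.05 in non-receptive and 6.33, 7.41 and 7.69 in receptive pools (-0.98, SE 0.41), and lay lower in each receptive pool. ACACA, the rate-limiting enzyme of fatty acid synthesis, read 6.64, 6.37 and 6.90 against 6.93, 7.26 and 7.51 (0.60, SE 0.19), and the fatty acid uptake protein CD36 read 7.13, 7.23 and 7.91 against 7.03, 6.86 and 6.53 (-0.62, SE 0.26). PRDX5, a peroxidase, read 11.62, 11.60 and 11.95 against 12.24, 12.23 and 12.02 (0.44, SE 0.12). None overlapped, and each had an adjusted p of 0.821. In the lipid list, 3 of 35 members were higher and 4 lower without overlap, beside 5.09% and 3.64% of all genes. The others were FABP5, a fatty acid binding protein, and SREBF2, a regulator of cholesterol synthesis, at 0.67 and 0.18, and ACSL1, CYP11A1 and ACADL, enzymes of fatty acid and steroid metabolism, at -0.33, -0.33 and -0.30. The medians of the corresponding lists were -0.06 over 21 ion and water transport genes, 0.05 over 35 genes of lipid metabolism and 0.00 over 38 antioxidant genes.

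The counts of list members can be read against those over all genes. With 1 probe set for each of 9155 genes, 223 (2.44%) were higher and 185 (2.02%) lower in receptive pools at an unadjusted limma p below 0.05, and 466 (5.09%) and 333 (3.64%) had no overlap. Over the 37 lists, no member passed the adjusted threshold.

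Whether the state differed in another way on day 7 than on day 3 was tested by the interaction of state and day. No probe set passed it (0%), the smallest adjusted p was 0.752, and 813 probe sets had an unadjusted limma p below 0.05. Of the 24 genes named for their size on day 7, 16 had the same direction on day 3, 7 of the 12 higher and 9 of the 12 lower genes. The share of all genes with the same direction on both days was not counted. These 24 were chosen on their day 7 values, so that a smaller difference on day 3 follows in part from the choice.

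BOLA-DQB1, CHD2, HSD17B14 and CERT1 had no overlap in the same direction on day 3, with differences of 0.68, -0.51, -0.65 and -0.38 beside 1.16, -0.86, -0.67 and -0.63 on day 7. HSD17B14 thus differed by nearly the same amount on both days, from 5.50 to 4.85 on day 3 and from 5.48 to 4.81 on day 7. HPGD had means of 8.09 in non-receptive and 8.37 in receptive pools on day 3, and 9.13 and 8.30 on day 7. ITPRIP had no overlap in the opposite direction on day 3, with means of 7.67 and 7.41. The share of all probe sets without overlap on day 3 was not counted, so that these genes have no background beside them. The 3′ minus 5′ signal of beta-actin divided the states on both days. Its part in differences shared by the days was not tested.

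Of the genes nearest the threshold on day 7, some lay in the same direction on day 3 and others did not. G6PC1 had no overlap in the same direction on day 3, with means of 3.03 and 3.41, and TJP3 and CERT1 differed by -0.22 and -0.38. DKK1 differed by -0.09 on day 3 beside -1.72 on day 7, and GNLY by -0.97 beside 2.16. GNLY thus had no overlap in the opposite direction on day 3. Among the genes named whatever their values, OXTR had day 3 means of 10.85 and 10.64, above the day 7 mean of 8.86 in non-receptive pools and near that of 10.30 in receptive pools. SERPINA14 differed by 5.25 on day 3, from a non-receptive mean of 0.71 near the floor to 5.96, without overlap, beside 0.68 on day 7. The ciliated markers had a median difference of -0.02 on day 3 beside 0.52 on day 7. The interaction of these genes did not pass the adjusted threshold.

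**Figure D5:**
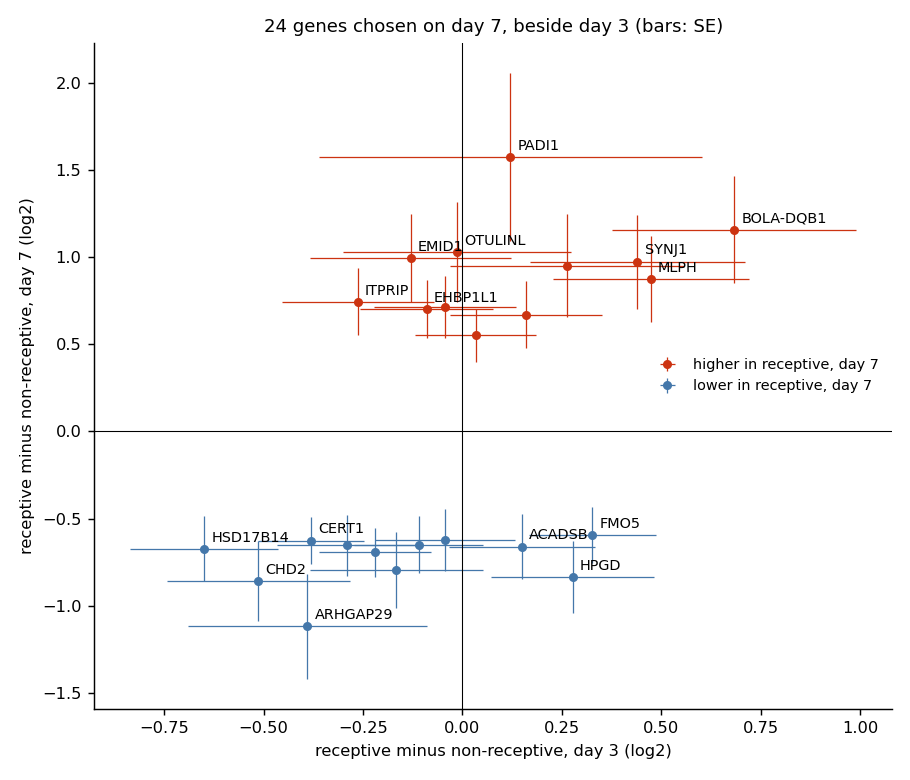
Difference between receptive and non-receptive pools on day 7 (log2, vertical axis) against the same difference on day 3 (log2, horizontal axis) for the 24 genes chosen on day 7, with bars of 1 standard error. HSD17B14, CHD2 and BOLA-DQB1 lie far from 0 on both axes, whereas HPGD and FMO5 lie below 0 on day 7 and above 0 on day 3.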

How the data were processed

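Log2 expression values of 24128 probe sets were taken as deposited by the authors. Per the labels, total RNA was extracted with TRI Reagent, cleaned after DNase treatment and labelled by the Affymetrix protocol, and the processing notes name PLIER, Affymetrix Expression Console and GCOS 1.1.1 without their roles. The scaling between arrays is not stated. The 112 control probe sets did not enter any step. Of the rest, 13292 carried 1 gene symbol in the platform annotation, 86 several and 10638 none, and the symbols matched by gene ID (13263) equalled those of RefSeq. Groups came from the sample titles.

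A linear model with 1 mean for each of 4 groups was fitted over 12 pools with limma 3.58.1 in R 4.3.3, followed by eBayes (9.88 degrees of freedom). Tests were two-sided with Benjamini-Hochberg adjustment over 24016 probe sets and a threshold of 0.05. The procedure was tested on simulated data with independent normal noise, which did not cover values at the floor or shifts shared by many genes of a pool. Genes were named from probe sets with 1 symbol, a mean above 5, no value of 0 and no overlap between states. The 12 with the largest difference in each direction were taken from an adjusted p below 0.05 or, failing that, an unadjusted p below 0.01. Up to 4 list members with the smallest p and ESR1, PGR, OXTR and SERPINA14 were added. In the 37 lists the probe set with the highest mean stood for a gene, and the level of a list is the mean of its members, each relative to its mean over the 6 pools. Lists and members were chosen with earlier results of these data known. The number of arrays limits the precision, and alternatives covered scaling, filters, the fit and the omission of each pool.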

Additional observations from a re-analysis of the deposited data

How the results depend on the processing

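No probe set was called under quantile normalization, median centring, a mean above 5, no value at the floor, an intensity trend or pool number as a replicate block. limma called 1 probe set when only the 6 day 7 pools were fitted (HYAL2) and 1 with array weights (G6PC1), each higher in receptive pools and with values at the floor. With 1 pool left out, the number called ranged from 0 to 2 in all, 0 to 1 higher, 0 to 1 lower and 0 to 2 for the interaction with day. On day 7 it was 2 without non-receptive pool 2, where G6PC1 had an adjusted p of 0.000372, and 1 without receptive pool 3 (PADI1). Leaving out non-receptive pool 3 or receptive pool 3 of day 3 each gave 1. The interaction gave 2 without non-receptive pool 2 of day 7 or receptive pool 2 of day 3, and 1 without receptive pool 3 of day 3. Among named genes, with 1 pool left out SERPINA14 ranged from -0.49 (without non-receptive pool 2) to 2.25. PF4, a platelet chemokine, ranged from -0.0567 (without non-receptive pool 2) to 1.53. BTK, a kinase of B cells, ranged from -0.0083 (without receptive pool 2) to 0.39. Over all alternatives, 3268 gene results, 1 for each probe set and setting, kept their direction and side of the threshold. No named gene had passed it in the main fit, so that the side could change only by a gain. Quantile normalization raised the share of higher probe sets among those with an unadjusted p below 0.05 from 37% to 46.4%, and without receptive pool 2 it was 29.6%. Recomputed after the data were seen, list medians moved by more than the list's spread between pools in 7 cases and by less in 733. The 7 included T and NK cell markers at -0.09 without receptive pool 3 and mast cell genes at -0.15 without non-receptive pool 3. By this measure a list with a wide spread can change sign and still count among the 733. Macrophage and dendritic cell markers did so, with a median of 0.20 that was -0.10 without non-receptive pool 2 and -0.07 without receptive pool 2. Deviations of same-numbered receptive and non-receptive pools of day 7 correlated at 0.31, -0.06 and -0.21. With 3 pools a group these values cannot decide whether the numbers pair the pools. Pairing of day 3 pools with day 7 pools of the same state was not tested. The replicate block called 0 probe sets, with 507 higher and 927 lower at an unadjusted limma p below 0.05.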

Other observations

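The remaining lists gave medians between -0.07 and 0.14, beside 0.02 for all genes. Complement and coagulation genes had a median of 0.07 over 35 members, and C1QB, a chain of the first complement component, had means of 6.48 in non-receptive and 7.34 in receptive pools. Glucose and amino acid transporters had a median of 0.01 over 20 members, growth factor and IGF genes -0.06 over 27, and TGF-beta and activin genes -0.01 over 29. Oxidative phosphorylation subunits had a median of 0.01 over 44 members, the highest member at 0.26. Cell cycle genes had a median of -0.04 over 39 members, and CDKN1A, an inhibitor of cyclin-dependent kinases, read 8.49, 7.50 and 8.54 against 9.58, 8.83 and 8.38. DNA methylation and chromatin genes had a median of -0.01 over 21, adhesion genes -0.01 over 26, squamous epithelium markers -0.07 over 23 (levels of 0.06, 0.05 and 0.19 in non-receptive and -0.12, 0.01 and -0.18 in receptive pools), B and plasma cell markers -0.05 over 10, erythrocyte and blood markers -0.03 over 11, and mast cell and trypsin inhibitor genes 0.12 over 10. In the adhesion list, GLYCAM1, a mucin-like ligand of selectin, read 5.33, 4.85 and 5.06 in non-receptive and 4.51, 4.56 and 4.82 in receptive pools. Immediate early genes had a median of 0.14 over 21, which was -0.0033 without receptive pool 1, and GADD45B, a stress-induced gene, read 7.83, 7.87 and 7.93 against 9.85, 8.18 and 8.02. Defensins and mucosal defence genes had a median of 0.10 over 26, which was -0.05 without receptive pool 1, with S100A7, an antimicrobial calcium-binding protein, lower in each receptive pool at means of 5.75 and 5.28.

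Several transcripts varied by 5 or more log2 units between pools of 1 state. PLET1, an epithelial surface protein, read 8.34, 3.88 and 12.61 in non-receptive and 10.56, 6.52 and 9.77 in receptive pools. TAP, the tracheal antimicrobial peptide, read 9.71, 4.94 and 7.03 against 12.89, 8.08 and 5.87. SLC13A2, a carrier of citrate and related acids, read 10.73 in non-receptive pool 3 and 3.45 to 4.64 in the other 5 pools. PENK, the precursor of enkephalins, read 8.23, 4.51 and 10.33 against 4.79, 4.84 and 5.99. Over the 37 lists, non-receptive pool 2 had the lowest level in 21 and receptive pool 3 in 8, while non-receptive pool 3 had the highest in 12 and receptive pools 1 and 2 in 9 and 10. These genes and counts were chosen after their values were seen.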
